A study of Mus musculus with 9 samples.

Results

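A set of 10 enzymes of threonine, glycine and one-carbon metabolism was followed across 3 culture media in mouse embryonic stem cells: Tdh, Gcat, Gldc, Amt, Gcsh, Shmt1, Mthfd1, Mat2a, Ahcy and Dmgdh. They were chosen by gene symbol, and all 10 were found among the 24819 symbols of the expression table. Because they were picked with earlier results of these same libraries in view, their levels and differences are given as a description, without p-values. Tests are given for other genes of the pathway, from lists that were also chosen with earlier results of these data known. Their p-values are therefore not an independent test.

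The cells were E14, an established embryonic stem cell line, and no sample carried a genetic change or a drug treatment beyond its medium. The EPSCM cells grew in expanded potential stem cell medium, for which the labels give only the name. The 2iLIF cells grew in serum-free N2B27 with LIF (leukemia inhibitory factor) and 2i, the inhibitor pair against MEK and GSK3. The ES cells grew in high-glucose DMEM with fetal serum, glutamine, non-essential amino acids, beta-mercaptoethanol and LIF. All cultures were on gelatin and are described as stable in their medium. Each medium had 3 libraries of polyadenylated RNA, which the labels do not tie to separate cultures, so every spread and p-value below measures differences between these libraries, which may be technical.

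Threonine dehydrogenase, made from Tdh, oxidises threonine in mitochondria, and the ligase from Gcat splits the product into glycine and acetyl-CoA. The glycine cleavage system then breaks glycine down and passes a one-carbon unit to folate: Gldc encodes its decarboxylase, Gcsh the lipoyl carrier, Amt the aminomethyltransferase and Dld the shared dehydrogenase. Folate-bound one-carbon units serve purine and thymidylate synthesis and the methionine cycle, which makes S-adenosylmethionine, the methyl donor for DNA and histones. Mouse embryonic stem cells are known for abundant Tdh and for their dependence on threonine.

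Values are FPKM, fragments scaled to transcript length and to the size of the library, so levels can be compared between genes per length. Differences are on the log2(FPKM + 1) scale with their standard error (SE), which understates changes of genes near 0. A gene was called when limma's adjusted p was under 0.05 and the difference was at least 1 in size, over 12330 tested genes. The steps between low values correspond to roughly 1.77e7 to 2.97e7 fragments per library. A single fragment on 1 kb of transcript then equals 0.0337 to 0.0565 FPKM. One library of each medium stood apart from the other 2: EPSCM replicate 2, 2iLIF replicate 1 and ES replicate 1, which carry library numbers 19, 18 and 16. Their correlations with the other libraries of their medium across the tested genes were 0.986 to 0.990, against 0.996 to 0.997 for the remaining pairs; genes are not independent replicates. The stem cell markers Pou5f1, Sox2, Nanog, Zfp42 and Esrrb summed to 1391 to 1614 FPKM in EPSCM, 2255 to 2584 in 2iLIF and 2552 to 2983 in ES. The largest part was Pou5f1, at 627, 1064 and 1352 FPKM in EPSCM, 2iLIF and ES, and Zfp42 had the same order (163, 404 and 534). The other markers did not share this order: Sox2 averaged 208, 181 and 254 FPKM, Nanog 295, 432 and 326, and Esrrb 175, 291 and 248. Fibroblast markers summed to 10.8 to 13.6 FPKM in EPSCM, 3.75 to 4.18 in 2iLIF and 15.0 to 17.6 in ES; most of this was Thy1, at 6.02, 0.410 and 14.4 FPKM in EPSCM, 2iLIF and ES, and Pdgfrb, at 5.74, 3.28 and 1.29 FPKM, while Col1a2 and Col3a1 stayed under 0.1 FPKM in all 9 libraries. Primitive endoderm markers summed to 6.73 to 7.47 FPKM in EPSCM, 1.73 to 2.06 in 2iLIF and 4.42 to 4.88 in ES. Of these, Gata6 averaged 3.17 FPKM in EPSCM, 0.258 in 2iLIF and 0.675 in ES, Gata4 averaged 3.22, 1.19 and 0.817 FPKM, Sox7 averaged 0.0315, 0.0422 and 2.79 FPKM in the same order, and Afp stayed under 0.1 FPKM. Trophoblast markers summed to 6.51 to 8.38 FPKM in EPSCM, 48.1 to 56.2 in 2iLIF and 7.09 to 8.11 in ES, most of it Krt8. Cdx2 averaged 0.0411 FPKM in EPSCM, 2.85 in 2iLIF and 0.109 in ES, and Elf5 stayed under 0.1 FPKM. Gata3 was instead highest in EPSCM, at 0.613 FPKM, against 0.289 in 2iLIF and 0.0331 in ES. Krt7 averaged 0.505, 0.676 and 0.527 FPKM in EPSCM, 2iLIF and ES. The part of these markers in the results was not tested.

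Promoter windows are shown first for Dmgdh and Gcat, the members that were higher in 2iLIF than in ES by more than the fold limit, and for Bhmt, which lies beside Dmgdh on chromosome 13. They are RefSeq sequences of GRCm38.p6, a later build than the mm9 of the expression table, and run from 250 bases before to 50 bases after the annotated start, 5′ to 3′ on the gene's own strand. The Dmgdh window is chr13:93674186-93674485 on the plus strand, with the 135 bases from the start of Bhmt2 to the start of Dmgdh in capitals. The Bhmt window is chr13:93637709-93638008 on the minus strand. The Gcat window is chr15:79030624-79030923 on the plus strand, with an E-box, CACGTG, in capitals.
Dmgdh: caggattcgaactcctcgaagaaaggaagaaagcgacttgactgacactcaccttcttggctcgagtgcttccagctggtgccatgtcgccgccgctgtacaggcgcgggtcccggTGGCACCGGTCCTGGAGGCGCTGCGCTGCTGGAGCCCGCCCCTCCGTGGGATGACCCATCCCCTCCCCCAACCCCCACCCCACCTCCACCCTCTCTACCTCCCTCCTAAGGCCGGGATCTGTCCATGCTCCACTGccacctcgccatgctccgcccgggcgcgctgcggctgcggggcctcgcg
Bhmt: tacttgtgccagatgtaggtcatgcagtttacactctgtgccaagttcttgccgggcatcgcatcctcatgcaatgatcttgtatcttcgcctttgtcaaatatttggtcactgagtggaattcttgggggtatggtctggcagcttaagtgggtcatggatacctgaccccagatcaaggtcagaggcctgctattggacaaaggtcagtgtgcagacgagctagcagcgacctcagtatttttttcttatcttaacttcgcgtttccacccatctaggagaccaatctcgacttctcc
Gcat: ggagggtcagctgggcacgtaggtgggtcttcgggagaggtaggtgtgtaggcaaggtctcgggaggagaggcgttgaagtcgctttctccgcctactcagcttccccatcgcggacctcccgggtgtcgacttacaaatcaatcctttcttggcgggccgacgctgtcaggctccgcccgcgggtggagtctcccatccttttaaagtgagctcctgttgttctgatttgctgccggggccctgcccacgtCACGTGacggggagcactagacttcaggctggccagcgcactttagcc

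Bhmt2 and Dmgdh are transcribed away from each other from starts 134 bases apart, so their windows share 233 bases, and 69.6% of the stretch in capitals is G or C. Of 13572 plus-strand genes in the promoter table, 9.39% have such a minus-strand start within 300 bases upstream. Promoters of 9 of the 10 members were in the table; Tdh was not matched. The E-box CACGTG, its own reverse complement, was in 1 of these 9 windows (Gcat) and in 7.15% of 32851 promoter windows of the same length. The WNT effector motif CTTTGAT was in none of the 9 windows on either strand, against 3.73% of all windows. The ATF4 composite motif TGATGNAA was also in none of the 9, against 3.97%. The motifs were chosen with the expression values known, and a match or its absence describes these letters only.

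**Figure D1:**
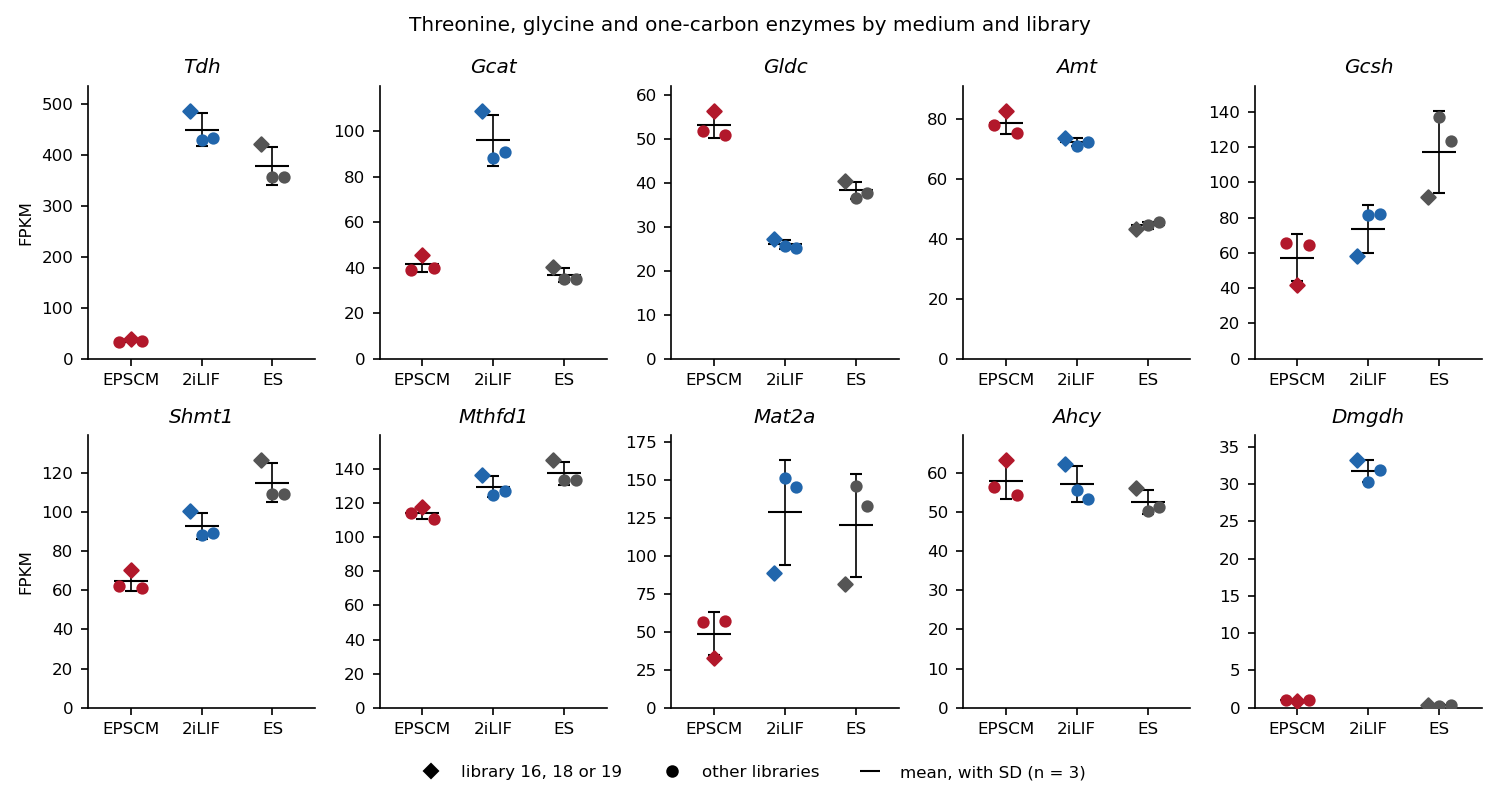
FPKM of each of the 10 enzymes in the EPSCM, 2iLIF and ES libraries, 1 point per library, with the mean and SD (n = 3); diamonds mark libraries 19, 18 and 16. Tdh sits at 32.3 to 38.2 FPKM in EPSCM and above 355 in every other library, and Dmgdh at 30.2 to 33.2 FPKM in 2iLIF and at most 1.05 elsewhere.

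The transcript for the first step of threonine catabolism was much lower in EPSCM than in the other media. Tdh, the entry enzyme, stood at 32.3, 38.2 and 34.0 FPKM in EPSCM, at 486, 428 and 432 FPKM in 2iLIF and at 421, 355 and 355 FPKM in ES. In bulk RNA, fewer cells with the transcript and less of it per cell cannot be told apart. All 3 EPSCM libraries lay far below the other 6, and the 2iLIF libraries lay above those of ES by a narrow margin. The EPSCM mean was 0.0924 times that of ES and 0.0777 times that of 2iLIF. On the log2 scale the differences were -3.40 ± 0.09 for EPSCM against ES, -3.65 ± 0.09 for EPSCM against 2iLIF and 0.25 ± 0.09 for 2iLIF against ES.

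Gcat, the next enzyme of the same route, was at 39.1, 45.6 and 39.7 FPKM in EPSCM, at 109, 88.2 and 90.8 in 2iLIF and at 40.5, 35.0 and 35.1 in ES. The 2iLIF libraries were all above the other 6, while EPSCM and ES overlapped. Its differences were -1.19 ± 0.10 for EPSCM against 2iLIF, 1.36 ± 0.10 for 2iLIF against ES and 0.17 ± 0.10 for EPSCM against ES. The ratio of Gcat to Tdh FPKM within a library was 1.17 to 1.21 in EPSCM, 0.206 to 0.224 in 2iLIF and 0.0961 to 0.0987 in ES. In EPSCM the ligase transcript slightly exceeded that of the dehydrogenase, and the 3 media did not overlap in this ratio.

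The glycine cleavage genes did not share 1 order of media. Gldc was at 51.9, 56.5 and 51.1 FPKM in EPSCM, at 27.2, 25.6 and 25.2 in 2iLIF and at 40.5, 36.6 and 37.8 in ES. Each medium formed a separate group, with EPSCM highest and 2iLIF lowest. The differences were 1.00 ± 0.06 for EPSCM against 2iLIF, 0.46 ± 0.06 for EPSCM against ES and -0.54 ± 0.06 for 2iLIF against ES.

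Amt was at 78.2, 82.9 and 75.5 FPKM in EPSCM, at 73.9, 71.2 and 72.5 in 2iLIF and at 43.4, 44.8 and 45.8 in ES. Here ES was the low medium, and EPSCM exceeded 2iLIF only just, with a difference of 0.12 ± 0.05 against 0.81 ± 0.05 for EPSCM against ES and 0.69 ± 0.05 for 2iLIF against ES. The Gldc to Amt ratio was 0.663 to 0.681 in EPSCM, 0.348 to 0.368 in 2iLIF and 0.817 to 0.933 in ES.

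Gcsh ran the other way. It was at 65.4, 41.9 and 64.4 FPKM in EPSCM, at 58.0, 81.3 and 81.8 in 2iLIF and at 91.4, 137 and 123 in ES. ES lay above both other media, which overlapped with each other. The library that stands apart was the lowest of its medium in all 3 cases. The difference was -1.03 ± 0.22 for EPSCM against ES, -0.37 ± 0.22 for EPSCM against 2iLIF and -0.66 ± 0.22 for 2iLIF against ES. The first of these sat at the fold limit, and it was -0.82 without EPSCM replicate 2, -0.91 without ES replicate 2 and -0.98 without ES replicate 3. It was also short of the limit after quantile normalization (-0.87), with array weights (-0.95) and with a covariate for library numbers from 10 upwards (-0.89). Dld, the fourth subunit, averaged 20.3 ± 5.06 FPKM in EPSCM, 22.0 ± 4.11 in 2iLIF and 27.4 ± 6.59 in ES (SD, n = 3 each), with overlapping libraries in every pair of media (limma adjusted p = 0.132 for EPSCM against ES, 0.662 for EPSCM against 2iLIF and 0.283 between 2iLIF and ES).

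Both folate enzymes among the members stayed within the fold limit. Shmt1, the cytosolic enzyme that interconverts serine and glycine, was at 62.3, 70.4 and 61.4 FPKM in EPSCM, at 101, 88.4 and 89.5 in 2iLIF and at 127, 109 and 109 in ES. The 3 media did not overlap, with EPSCM lowest. The differences were -0.82 ± 0.09 for EPSCM against ES, -0.52 ± 0.09 for EPSCM against 2iLIF and -0.31 ± 0.09 for 2iLIF against ES. Its mitochondrial counterpart Shmt2 had means of 97.5 ± 10.3 FPKM in EPSCM, 101 ± 8.63 in 2iLIF and 137 ± 14.6 in ES, so that the Shmt1 to Shmt2 ratio was 0.644 to 0.678 in EPSCM, 0.912 to 0.934 in 2iLIF and 0.825 to 0.866 in ES. Shmt2 overlaps Ndufa4l2 in the RefSeq annotation, and Ndufa4l2 itself was at 104 ± 12.5 FPKM in EPSCM, 1.12 ± 0.248 in 2iLIF and 31.0 ± 3.20 in ES; use of strand in the counting was a point not given in the sources used here, and its part in the Shmt2 values was not tested.

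Mthfd1, the cytosolic enzyme with 3 activities on folate-bound one-carbon units, was at 114, 118 and 111 FPKM in EPSCM, at 137, 125 and 127 in 2iLIF and at 145, 133 and 134 in ES. EPSCM was lowest without overlap, and 2iLIF and ES overlapped. The differences were small, at -0.26 ± 0.06 for EPSCM against ES, -0.18 ± 0.06 for EPSCM against 2iLIF and -0.08 ± 0.06 for 2iLIF against ES.

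In the methionine cycle, Mat2a and Ahcy differed in how they varied. Mat2a, whose enzyme makes S-adenosylmethionine, was at 56.5, 32.4 and 57.1 FPKM in EPSCM, at 88.6, 151 and 145 in 2iLIF and at 81.2, 146 and 133 in ES. EPSCM stayed below the other media without overlap, and 2iLIF and ES overlapped. The differences were -1.28 ± 0.30 for EPSCM against ES, -1.39 ± 0.30 for EPSCM against 2iLIF and 0.10 ± 0.30 for 2iLIF against ES. Mat2a overlaps Particl and Ggcx in the annotation, which averaged 1.92 ± 0.557 and 10.8 ± 0.933 FPKM in EPSCM, 2.80 ± 0.157 and 7.74 ± 0.175 in 2iLIF, and 1.82 ± 0.181 and 3.74 ± 0.423 in ES. Their part in the Mat2a values was not tested.

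Ahcy, which removes the S-adenosylhomocysteine left after methyl transfer, was at 56.6, 63.4 and 54.4 FPKM in EPSCM, at 62.3, 55.8 and 53.4 in 2iLIF and at 56.2, 50.3 and 51.3 in ES. Every pair of media overlapped. In both EPSCM comparisons its difference was the smallest of the 10; the values were 0.14 ± 0.08 for EPSCM against ES, 0.02 ± 0.08 for EPSCM against 2iLIF and 0.12 ± 0.08 for 2iLIF against ES.

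Dmgdh, a mitochondrial enzyme that demethylates dimethylglycine and hands the one-carbon unit to folate, was at 1.02, 0.897 and 1.05 FPKM in EPSCM, at 33.2, 30.2 and 31.9 in 2iLIF and at 0.369, 0.167 and 0.420 in ES. All 3 2iLIF libraries stood far above the other 6, and EPSCM lay above ES without overlap. The differences were -4.04 ± 0.08 for EPSCM against 2iLIF, 4.64 ± 0.08 for 2iLIF against ES and 0.60 ± 0.08 for EPSCM against ES. The last depends on the pseudocount, and was 1.43 with 0.1 FPKM in place of 1. Dmgdh is best known from liver, and liver markers (Alb, Apoa1, Ttr, Serpina1a and Tat) summed to 0.126 to 0.264 FPKM in EPSCM, 0.0142 to 0.288 in 2iLIF and 0.165 to 0.311 in ES, with Serpina1a at 0 in all 9 libraries.

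**Figure D2:**
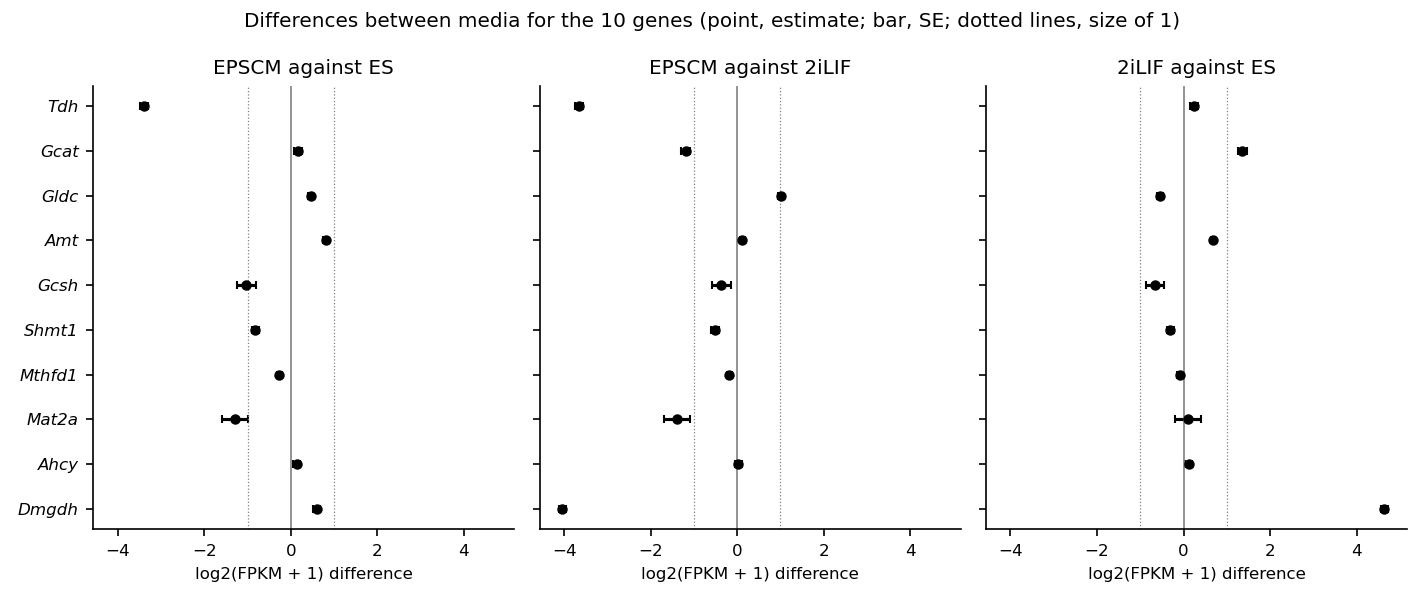
Difference in log2(FPKM + 1) for each of the 10 enzymes in the 3 comparisons, with its SE; dotted lines mark a size of 1. Tdh is far below 0 in both EPSCM comparisons, at -3.40 and -3.65, and Dmgdh is far from 0 in both 2iLIF comparisons, at -4.04 and 4.64.

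By limma's rule 3 of the 10 members were lower in EPSCM than in ES (Tdh, Gcsh and Mat2a) and none higher, where 19.7% of all tested genes were called, 11.7% higher and 7.97% lower. Against 2iLIF, 4 were lower in EPSCM (Tdh, Gcat, Mat2a and Dmgdh) and 1 higher (Gldc), where 16.1% of all tested genes were called, 10.1% higher and 5.91% lower. Between 2iLIF and ES, 2 were higher in 2iLIF (Gcat and Dmgdh) and none lower, where 14.7% were called, 7.62% higher and 7.12% lower. The member libraries did not overlap for 8, 8 and 7 of the 10 in the 3 comparisons, where 74.1%, 71.1% and 70.6% of all tested genes did not overlap. Since the members were chosen with these contrasts known, nothing is read from these shares. The Gldc call sat at the fold limit and ended without EPSCM replicate 2 (0.96), without 2iLIF replicate 2 (0.99) and without 2iLIF replicate 3 (0.98). It also ended after scaling to the same median ratio (0.91), with array weights (0.99) and with a covariate for library numbers from 10 upwards (0.97). The median difference of the members was -0.06, -0.44 and 0.11 in the 3 comparisons, beside 0.09, 0.03 and 0.03 over all tested genes. The comparisons share libraries, so their values are not independent.

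The libraries that stand apart moved several members alike in each medium. Mat2a in the library that stands apart was 0.571 times the mean of the other 2 in EPSCM, 0.598 times in 2iLIF and 0.584 times in ES. For Gcsh these ratios were 0.646 in EPSCM, 0.711 in 2iLIF and 0.703 in ES. Tdh, Gcat, Gldc, Shmt1, Mthfd1 and Ahcy were higher in that library in all 3 media, with ratios from 1.05 to 1.22. Over all tested genes 38.4% were higher and 25.3% lower in all 3 of these libraries, and what set them apart was not tested. Each medium holds 1 of these libraries. Over the other 6 libraries Tdh was at -3.38 and Mat2a at -1.28 for EPSCM against ES, and Dmgdh at 4.64 for 2iLIF against ES, while Gcsh in EPSCM against ES and Gldc in EPSCM against 2iLIF were both at 0.99 in size. For EPSCM against ES the SE was then 0.045 for Mat2a and 0.048 for Gcsh, from 2 libraries per medium. With all libraries it was 0.30 and 0.22.

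**Figure D3:**
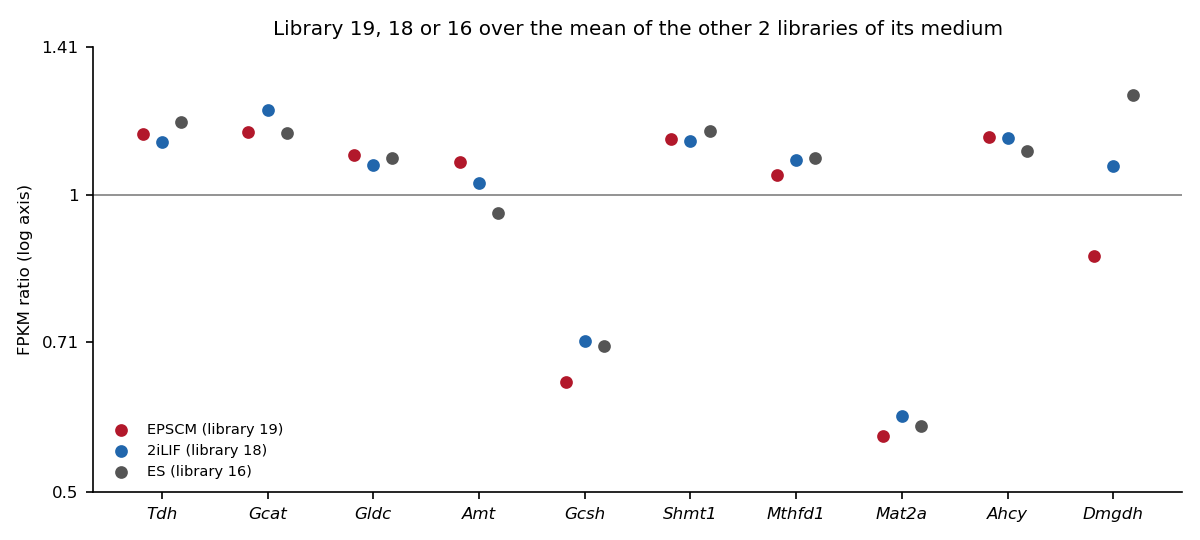
FPKM in library 19 (EPSCM), 18 (2iLIF) or 16 (ES) divided by the mean of the other 2 libraries of the same medium, on a log axis, for the 10 enzymes. Mat2a and Gcsh lie well below 1 in all 3 media, between 0.571 and 0.711, and most other members lie slightly above 1.

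The wider pathway was read from 8 lists with 69 further genes, of which 60 passed the filter on low values. Of these 60, EPSCM against ES gave 6 higher and 6 lower, beside the 19.7% called among all tested genes. After scaling the libraries to the same median ratio the split was 5 higher and 8 lower. EPSCM against 2iLIF gave 3 higher and 6 lower, beside 16.1%. For 2iLIF against ES there were 6 higher and 3 lower, beside 14.7%. The medians of the 60 were -0.21, -0.10 and -0.18, beside 0.09, 0.03 and 0.03 over all tested genes. The number of calls was thus close to the background in all 3 comparisons, and the lists differed in which medium was high.

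**Figure D4:**
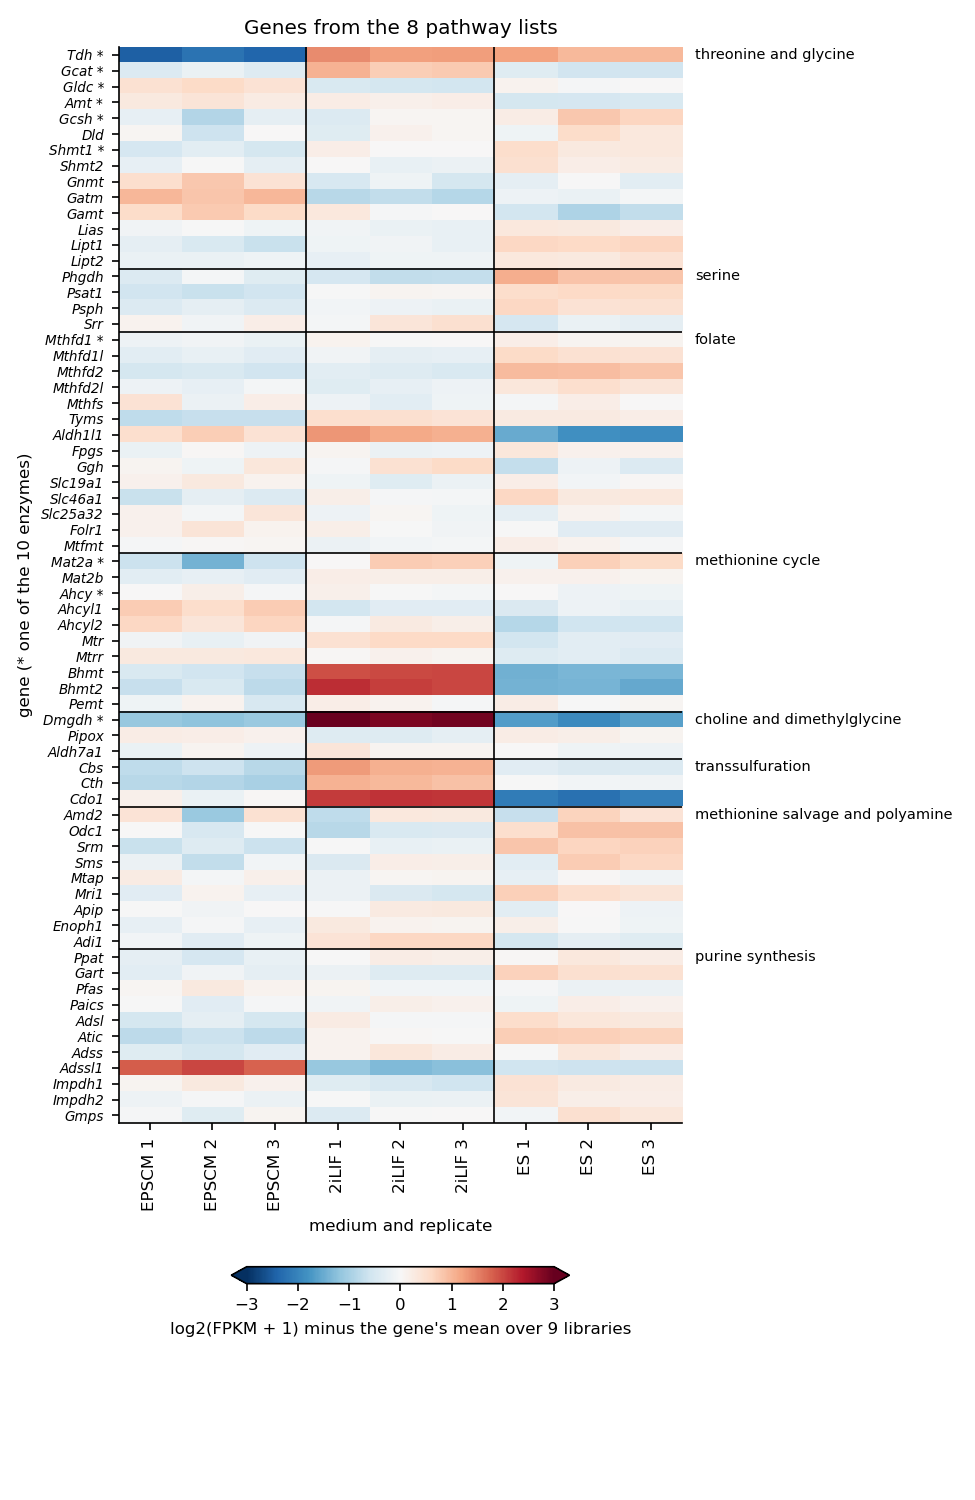
Each row is a gene from the 8 pathway lists that was tested and is shown here, and each column a library; colour gives log2(FPKM + 1) minus the gene's mean over the 9 libraries, and asterisks mark the 10 enzymes. Bhmt, Bhmt2, Dmgdh and Cdo1 are high in all 3 2iLIF libraries, Adssl1 in all 3 EPSCM libraries and Mthfd2 in all 3 ES libraries.

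Serine is the main source of one-carbon units in many cells, and Phgdh, Psat1 and Psph, which make it, had their highest means in ES. Of the list's 6 genes 4 were tested, and 2 were called lower in EPSCM than in ES, beside 7.97% of all tested genes. These were Phgdh, the first enzyme of the route, at 63.5 ± 8.78 against 147 ± 15.4 FPKM (-1.20 ± 0.11, limma adjusted p = 1.35e-05), and Psat1, the aminotransferase that follows, at 85.3 ± 3.28 against 194 ± 4.59 FPKM (-1.18 ± 0.05, adjusted p = 1.16e-07). The Psat1 call was lost after quantile normalization, at -0.97. Phgdh was also lower in 2iLIF, at 48.4 ± 4.55 FPKM, than in ES (-1.58 ± 0.11, adjusted p = 2.92e-06). No gene of the list was called for EPSCM against 2iLIF by limma, where 3 of the 4 had an adjusted p under 0.05, and the same number an unadjusted one, but missed the fold limit. Among them Psat1 was at -0.65 ± 0.05 (adjusted p = 4.59e-06). Of all 12330 tested genes, 8381 had an adjusted p under 0.05 for EPSCM against 2iLIF.

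Among mitochondrial folate genes, Mthfd2, Mthfd1l and Shmt2 also had their highest means in ES. Mthfd2, which oxidises methylene-folate in mitochondria, averaged 23.3 ± 1.09 FPKM in EPSCM, 25.7 ± 1.16 in 2iLIF and 64.1 ± 2.44 in ES. It fell by 1.42 ± 0.06 on the log2 scale in EPSCM (adjusted p = 9.01e-08) and by 1.29 ± 0.06 in 2iLIF (adjusted p = 1.54e-07), both against ES. The ratio of the cytosolic Mthfd1 to Mthfd2 was 4.81 to 4.96 in EPSCM, 4.86 to 5.20 in 2iLIF and 2.05 to 2.21 in ES. Mthfd1l, the mitochondrial formate-releasing enzyme, was at 30.6 ± 1.502, 32.4 ± 2.05 and 53.5 ± 2.82 FPKM in EPSCM, 2iLIF and ES, and its differences of -0.79 ± 0.07 and -0.70 ± 0.07 against ES were short of the fold limit. Shmt2 was at -0.49 ± 0.10 for EPSCM against ES (adjusted p = 0.00218), also short of it.

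Cytosolic folate genes were mixed. Aldh1l1, which oxidises formyl-folate to carbon dioxide, averaged 13.7 ± 1.65 FPKM in EPSCM, 21.6 ± 2.14 in 2iLIF and 2.00 ± 0.437 in ES, and rose against ES both in EPSCM (2.30 ± 0.12, adjusted p = 3.59e-07) and in 2iLIF (2.92 ± 0.12, adjusted p = 1.03e-07). Tyms, thymidylate synthase, was at 16.9 ± 0.578 FPKM in EPSCM, 39.9 ± 1.48 in 2iLIF and 33.9 ± 0.883 in ES. It fell in EPSCM against 2iLIF (-1.19 ± 0.05, adjusted p = 1.23e-07), while the difference of -0.96 ± 0.05 against ES missed the fold limit and passed it after scaling to the same median ratio (-1.07). Over the 15 tested folate genes that are not members, 1 was higher and 1 lower in EPSCM than in ES, none higher and 1 lower in EPSCM than in 2iLIF, and 1 higher and 1 lower in 2iLIF than in ES. Over all tested genes the shares called higher and lower were 11.7% and 7.97%, 10.1% and 5.91%, and 7.62% and 7.12%, in the same order.

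Bhmt, of the betaine branch of homocysteine remethylation, and Bhmt2 were high in 2iLIF along with Dmgdh. Bhmt, betaine-homocysteine methyltransferase, releases the dimethylglycine that the Dmgdh enzyme uses, and Bhmt2 is its relative that uses S-methylmethionine. Bhmt was at 1.18, 1.03 and 0.869 FPKM in EPSCM, at 10.4, 10.9 and 11.1 in 2iLIF and at 0.108, 0.173 and 0.158 in ES. Bhmt2 was at 0.934, 1.26 and 0.794 FPKM in EPSCM, at 13.4, 11.9 and 11.5 in 2iLIF and at 0.155, 0.178 and 0.0618 in ES. Both genes had the order of Dmgdh, with 2iLIF highest, EPSCM next and ES lowest, and no overlap. For 2iLIF against ES the differences were 3.36 ± 0.07 for Bhmt (adjusted p = 2.45e-09) and 3.55 ± 0.10 for Bhmt2 (adjusted p = 8.93e-09). For EPSCM against 2iLIF they were -2.54 ± 0.07 (adjusted p = 1.00e-08) and -2.74 ± 0.10 (adjusted p = 3.73e-08). The paralogs are similar in sequence, so reads could be split between them and their single values are uncertain. Sardh, which acts on the sarcosine that Dmgdh makes, did not pass the filter, with at most 0.0543 FPKM in any library. Chdh, on the choline and dimethylglycine list with Sardh, did not pass it either. Its means were 0.0411 FPKM in EPSCM, 0.00404 in 2iLIF and 0.00785 in ES. The tested genes of the choline and dimethylglycine list that are not members, Pipox and Aldh7a1, were not called in any comparison by limma. For EPSCM against ES 0 of them had an adjusted or unadjusted p under 0.05. In each of the other comparisons both p-values were under 0.05 for 2 of 2, short of the fold limit. Of all 12330 tested genes, 9015 had an adjusted p under 0.05 for EPSCM against ES, 8381 for EPSCM against 2iLIF and 8265 for 2iLIF against ES.

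Bhmt and Bhmt2 are also the nearest tested genes on the side of Dmgdh where its start lies. Among the 10 tested genes around Dmgdh, 4 were higher in 2iLIF than in ES, beside 7.62% called higher over all tested genes: Bhmt, Bhmt2, Lhfpl2 and Ap3b1. Lhfpl2 averaged 0.981 ± 0.0148 FPKM in EPSCM, 7.71 ± 0.270 in 2iLIF and 0.551 ± 0.0604 in ES. Arsb, which directly follows Dmgdh, was low in every medium, at 1.24 ± 0.108, 0.701 ± 0.0358 and 0.210 ± 0.0330 FPKM in EPSCM, 2iLIF and ES. Gene order is from the RefSeq table of GRCm38 and was used only to say which genes are neighbours.

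Tdh lies on chromosome 14, where its 10 tested neighbours moved in both directions. For EPSCM against ES, 3 were higher (Defb42, Ctsb and Gata4), 3 lower (Pinx1, Sox7 and Mir124a-1hg), beside 11.7% called higher and 7.97% called lower over all tested genes, and the range was -1.88 to 1.99 with a median of 0.04, beside -3.40 for Tdh. For EPSCM against 2iLIF the neighbours ranged from -0.40 to 1.29, beside -3.65 for Tdh. Over 420 tested genes of chromosome 14 the median was -0.06 for EPSCM against ES and 0.08 for EPSCM against 2iLIF. In both EPSCM comparisons Tdh lay below all 10 of these neighbours.

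**Figure D5:**
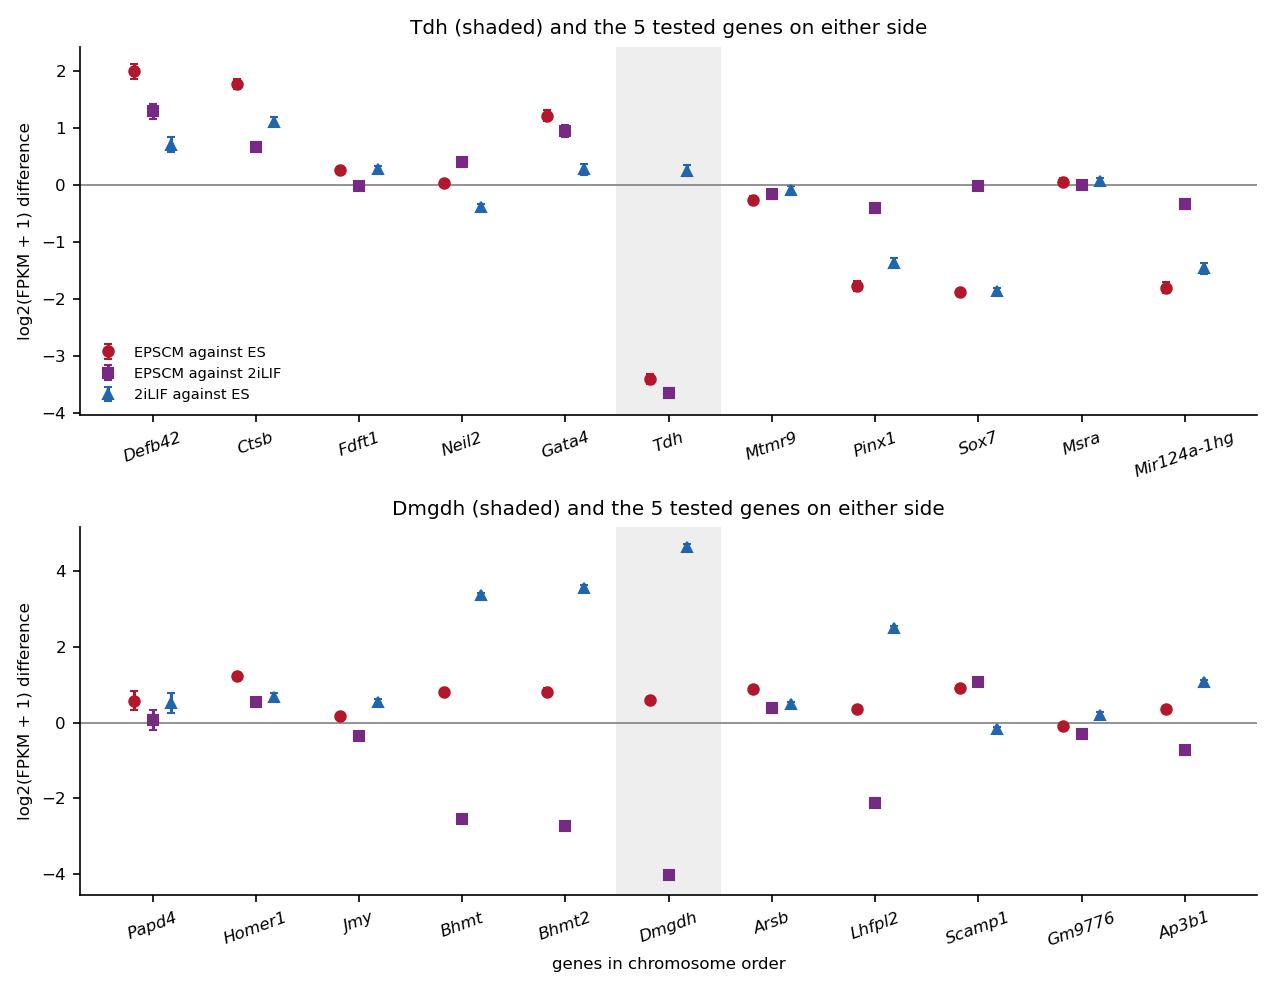
Difference in log2(FPKM + 1) with its SE for Tdh (upper panel) and Dmgdh (lower panel), shaded, and the 5 tested genes on either side in chromosome order, in the 3 comparisons. Tdh lies below every neighbour in both EPSCM comparisons, and Bhmt, Bhmt2 and Lhfpl2 lie in the direction of Dmgdh in both 2iLIF comparisons.

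Cbs and Cth, the genes of transsulfuration, which takes homocysteine out of the methionine cycle towards cysteine, were highest in 2iLIF. The list also holds Cdo1, which acts on cysteine after that route and was highest in 2iLIF as well. Cbs, the first enzyme, averaged 8.06 ± 0.711 FPKM in EPSCM, 32.1 ± 2.90 in 2iLIF and 10.5 ± 0.373 in ES. Cth, the second, averaged 21.5 ± 1.05, 80.7 ± 4.44 and 38.9 ± 1.29 FPKM in EPSCM, 2iLIF and ES. Cdo1, which oxidises cysteine, averaged 13.7 ± 1.82, 63.4 ± 1.67 and 2.38 ± 0.227 FPKM in EPSCM, 2iLIF and ES. All 3 were lower in EPSCM than in 2iLIF, with differences of -1.87 ± 0.08 for Cbs (adjusted p = 1.18e-07), -1.86 ± 0.06 for Cth (adjusted p = 2.51e-08) and -2.14 ± 0.09 for Cdo1 (adjusted p = 1.24e-07), beside 5.91% of all tested genes called lower. All 3 were higher in 2iLIF than in ES, beside 7.62% of all tested genes called higher. The differences were 1.52 ± 0.08 for Cbs, 1.03 ± 0.06 for Cth and 4.26 ± 0.09 for Cdo1. The Cth value was just under the fold limit at 0.997 without 2iLIF replicate 1. Against ES, Cdo1 rose in EPSCM (2.12 ± 0.09, adjusted p = 1.37e-07), while Cth was at -0.83 ± 0.06 and Cbs at -0.35 ± 0.08.

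The rest of the methionine cycle showed smaller differences. Mtr, the folate-dependent methionine synthase, averaged 14.0 ± 0.640 FPKM in EPSCM, 23.3 ± 1.45 in 2iLIF and 11.6 ± 1.04 in ES. Its difference of 0.95 ± 0.08 for 2iLIF against ES missed the fold limit and was 1.00, past it, without 2iLIF replicate 1. Mat2b, the regulatory partner of Mat2a, was at 32.7 ± 0.967, 46.1 ± 0.538 and 44.2 ± 0.743 FPKM in EPSCM, 2iLIF and ES, a difference of -0.42 ± 0.05 for EPSCM against ES. Relatives of Ahcy that regulate ion channels and other proteins had their highest means in EPSCM. Ahcyl1 was at 42.4 ± 4.07 FPKM against 19.5 ± 1.64 in 2iLIF (1.09 ± 0.10, adjusted p = 1.22e-05). Ahcyl2 was at 14.8 ± 1.75 FPKM against 5.76 ± 0.691 in ES (1.23 ± 0.12, adjusted p = 1.35e-05). In 2iLIF, Ahcyl2 averaged 10.9 ± 1.27 FPKM, and it was not called for EPSCM against 2iLIF. Ahcyl1 averaged 21.5 ± 2.11 FPKM in ES, and its difference of 0.95 ± 0.10 for EPSCM against ES passed the fold limit without EPSCM replicate 2 (1.03) or without ES replicate 2 (1.00). The Ahcyl1 call against 2iLIF was lost after scaling to the same median ratio, at 0.99. Nnmt, which spends S-adenosylmethionine on nicotinamide, did not pass the filter, at 0.146 ± 0.0772 FPKM in EPSCM, 0.954 ± 0.242 in 2iLIF and 0.0527 ± 0.0460 in ES.

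The threonine and glycine list held 8 tested genes that are not members: Dld, Shmt2, glycine users and lipoyl genes. They gave 2 rises and 1 fall in EPSCM against ES, beside 11.7% of all tested genes called higher and 7.97% lower. Gatm and Gamt make creatine from glycine and S-adenosylmethionine. Gatm averaged 2.79 ± 0.233 FPKM in EPSCM, 0.132 ± 0.0497 in 2iLIF and 0.800 ± 0.0954 in ES. Gamt was at 3.22, 3.97 and 3.32 FPKM in EPSCM, at 2.58, 1.83 and 1.92 in 2iLIF and at 0.957, 0.520 and 0.713 in ES. Against ES, Gatm rose by 1.07 ± 0.07 (adjusted p = 9.47e-07) and Gamt by 1.38 ± 0.12 (adjusted p = 8.17e-06) in EPSCM. The Gatm call was lost after quantile normalization, at 0.88, and after scaling to the same median ratio, at 0.996. Against 2iLIF, Gatm was higher in EPSCM by 1.74 ± 0.07 (adjusted p = 6.25e-08). Lipt1, a lipoyl transferase, fell in EPSCM against ES, at 4.24 ± 0.698 against 9.98 ± 0.184 FPKM (-1.08 ± 0.09, adjusted p = 6.89e-06), and was at -0.98 without EPSCM replicate 3. Lipt1 overlaps Mitd1 in the annotation, which averaged 9.70 ± 0.749 FPKM in EPSCM and 20.8 ± 1.22 in ES. None of the 8 was called for 2iLIF against ES by limma, where 6 had an adjusted p under 0.05, and the same number an unadjusted one, but missed the fold limit. Of all 12330 tested genes, 8265 had an adjusted p under 0.05 in this comparison. With a pseudocount of 0.1 FPKM, Gatm (-1.97) and Gamt (1.43) were past both limits in that comparison.

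Downstream users of one-carbon units and of S-adenosylmethionine were read from the purine list and the salvage and polyamine list. For EPSCM against ES, 18.2% and 11.1% of their tested genes were called, beside 19.7% of all tested genes. For EPSCM against 2iLIF the shares were 9.09% and 0%, beside 16.1%. For 2iLIF against ES they were 0% and 11.1%, beside 14.7%. Of 11 purine genes, Adssl1, which acts in the purine nucleotide cycle of muscle, was higher in EPSCM at 16.2 ± 1.46 FPKM, against 0.999 ± 0.137 in 2iLIF (3.10 ± 0.08, adjusted p = 8.45e-09) and 2.06 ± 0.0651 in ES (2.48 ± 0.08, adjusted p = 2.43e-08). Atic, which takes up a formyl-folate in the last steps of purine synthesis, fell in EPSCM to 68.3 ± 3.90 FPKM, against 188 ± 4.93 in ES (-1.45 ± 0.06, adjusted p = 7.37e-08), and averaged 118 ± 4.49 in 2iLIF. For 2iLIF against ES limma called none of the purine genes, where 6 had an adjusted p under 0.05, and the same number an unadjusted one, but missed the fold limit. Of all 12330 tested genes, 8265 had an adjusted p under 0.05 there. Of 9 tested salvage and polyamine genes, Srm, spermidine synthase, fell in EPSCM to 90.9 ± 10.4 FPKM, against 225 ± 14.0 in ES (-1.30 ± 0.09, adjusted p = 2.13e-06). Odc1, ornithine decarboxylase, averaged 175 ± 32.1 FPKM in EPSCM, 130.5 ± 19.6 in 2iLIF and 329 ± 46.3 in ES, and fell in 2iLIF against ES (-1.33 ± 0.17, adjusted p = 0.000113). For EPSCM against ES, Odc1 was at -0.91 ± 0.17, and it passed the limit without EPSCM replicate 1 (-1.002) or without ES replicate 1 (-1.04).

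Likeness of profiles over the 9 libraries was measured by the root mean square difference of log2(FPKM + 1) after centring each gene on its mean. Predicted, unnamed and small RNA genes were left out, and the closest remaining tested genes were taken for Tdh, Gldc and Dmgdh. For Tdh they were Id3, Msc and Lefty2, at 0.139, 0.179 and 0.197. Id3 averaged 1.86 ± 0.187 FPKM in EPSCM, 36.9 ± 2.85 in 2iLIF and 35.8 ± 4.33 in ES. For Gldc they were Dgkd, Mfsd13a and Pbx2, at 0.0357, 0.0407 and 0.0438, all of them highest in EPSCM and lowest in 2iLIF. For Dmgdh they were Trpm1, Nkx1-2 and Cdx1, at 0.230, 0.377 and 0.470. Trpm1 averaged 2.29 ± 0.246 FPKM in EPSCM, 73.8 ± 4.95 in 2iLIF and 1.43 ± 0.105 in ES. Nkx1-2 averaged 0.0570 ± 0.0257, 29.9 ± 0.850 and 0.158 ± 0.0159 FPKM in the same media, with EPSCM below ES, unlike Dmgdh. Cdx1 averaged 8.12 ± 0.512, 83.7 ± 6.39 and 1.84 ± 0.237 FPKM. With a pseudocount of 1 FPKM, differences near 0 weigh little in this measure. Likeness here describes 9 libraries in 3 media and nothing more.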

How the data were processed

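Polyadenylated RNA of 9 libraries was measured, 3 per medium, grouped by the culture condition in the labels. The deposited values are FPKM per gene symbol. The submitters' processing notes name STAR, Cuffnorm and the mouse build mm9. Versions, annotation, scaling and strand settings were not given in the sources used here. Since FPKM divides by library total, abundant genes can shift all others. Per the labels' protocols, RNA was column-purified with DNase and libraries came from a stranded mRNA kit.

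The filter asked for 1 FPKM or more in 3 or more of the 9 libraries and left 12330 of 24819 genes, including all 10 members and 60 of 69 other pathway genes. One limma model (limma 3.58.1, R 4.3.3) of log2(FPKM + 1) was fitted over all 9 libraries, with a mean per medium and a variance trend, and p-values were adjusted by Benjamini-Hochberg over all tested genes. The procedure was tested on simulated data. The members, lists, motifs and tests were chosen with earlier results of these data known. Named genes were all members, a set of key genes, and up to 4 called genes per list and comparison ranked by size of difference, from a mean of 1 FPKM in the higher medium. A few other genes of the lists are named beside them. Fragments per library were estimated from the spacing of low FPKM in genes whose only annotated transcript exceeds 1000 bases, a rough estimate because the lengths come from another annotation. Within a medium at most 18 of the tested genes had identical values in 2 libraries, and all libraries were kept as separate samples. Symbols were matched to the RefSeq table of GRCm38.p6, 24734 of 24819 in all and 465 of these by a unique synonym. Alternatives covered the pseudocount, filters, scaling, covariates, weights and left-out libraries. Some pathway genes count in the totals but are not reported by name here.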

Additional observations from a re-analysis of the deposited data

How the results depend on the processing

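Each of 9 counts of calls was recomputed under 20 settings, and 4 of the 180 values moved by more than 1.5 times. All 4 were counts over all genes. Where the filter was a mean of 5 FPKM, called genes numbered 1532 for EPSCM against ES, 1025 for EPSCM against 2iLIF and 1055 for 2iLIF against ES, and with a pseudocount of 0.1 FPKM they numbered 2738 for 2iLIF against ES, beside 2423, 1979 and 1817. The first 3 come with fewer genes tested, 8478 in place of 12330; for the last the cause was not tested. Leaving out 1 library gave 2405 to 2492, 1975 to 2017 and 1808 to 1895 called genes, and among the other pathway genes 11 to 14, 9 to 10 and 9 to 11. Scaling moved the balance of calls: the share called higher was 59.4% for EPSCM against ES and 63.2% for EPSCM against 2iLIF, and after quantile normalization 49.5% and 52.8%. Scaling to the same median ratio gave 1192 higher and 1191 lower for EPSCM against ES, and 55.9% higher for EPSCM against 2iLIF. Of 2148 recomputed differences of single genes, none called changed sign, and 34 changed their call, 20 losing and 14 gaining it, in 14 genes. With the libraries that stand apart left out or used as a covariate, 12, 9 and 9 other pathway genes were called, as in the full fit. With 0.1 FPKM as the pseudocount, Bhmt and Bhmt2 also passed for EPSCM against ES (2.20 and 2.26), where ES rests on very few fragments. No paired analysis was possible because the labels give no replicate number shared between media.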
